A study of Bos taurus with 6 samples.

Results

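The nuclear genes that encode the oxidative phosphorylation (OXPHOS) machinery were examined in bovine embryonic stem cells grown on living or on fixed feeder cells. They were chosen by symbol: every gene whose name starts with NDUF, UQCR or ATP5, together with SDHA to SDHD, CYC1, and the COX4 to COX8 families. The count table held 97 such genes among 19163, of which 45 belong to complex I, 4 to complex II, 9 to complex III, 21 to complex IV and 18 to complex V. The naming rule also takes in genes that are not constitutive subunits. These are 8 assembly factors of complex I (NDUFAF1 to NDUFAF8), 9 tissue-specific or alternative forms of complex IV subunits, the supercomplex factor COX7A2L and the ATP synthase inhibitor ATP5IF1, which leaves 78 ubiquitous subunits.

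Oxidative phosphorylation takes place in the inner mitochondrial membrane. Complexes I and II pass electrons from NADH and succinate to ubiquinone, complex III passes them on to cytochrome c, and complex IV, cytochrome c oxidase, reduces oxygen. Complexes I, III and IV pump protons, and complex V, the ATP synthase, uses the resulting gradient to make ATP. Most subunits are encoded in the nucleus and assembled with a small set made from the mitochondrial genome, and pluripotent stem cells are known to draw much of their ATP from glycolysis.

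F7 is a bovine embryonic stem cell line derived from an in vitro fertilized Holstein Friesian embryo. Cells named MC-F7 were cultured on mouse embryonic fibroblasts (MEFs) treated with mitomycin C, which arrests division but leaves the feeders alive (the labels call these libraries 1M). Cells named MT-F7 were cultured on MEFs fixed with methanol, which kills them. Both groups had 15 passages and gave 3 RNA-seq libraries each, from cells that stayed afloat after the dissociated cultures were left on a gelatin-coated dish. According to the study's methods the medium of MC-F7 cells was changed daily and that of MT-F7 cells every other day, so feeder and feeding interval cannot be told apart. A single line was used, and no source used here says whether separate cultures gave the 3 libraries of each group. The p-values therefore measure only the spread between these libraries, which may be technical.

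The libraries held 21958386 to 24933430 reads assigned to genes, and the OXPHOS genes took between 0.938% and 1.34% of them. Genes of the mitochondrial genome took 16.3%, 19.8% and 28.3% of the counts in MC-F7 replicates 1, 2 and 3, and 23.2%, 18.0% and 27.9% in MT-F7. The paper reports a lower rate of alignment to the bovine genome for MC-F7 reads than for MT-F7 reads. It proposes that fixed feeders reduced contamination by feeder cells. Whether mouse feeder reads entered the bovine counts was not tested here. The stem cell label was checked against markers. The 6 pluripotency markers in the table (POU5F1, NANOG, LIN28A, SALL4, DPPA4 and DNMT3B) summed to between 1345 and 2014 counts per 1000000 (CPM) in the MC-F7 libraries and between 738 and 854 in the MT-F7 libraries. All except SALL4 were significantly lower in MT-F7. Of 15 fibroblast markers, 14 were testable, 5 rose in MT-F7 (COL3A1, COL5A1, POSTN, PDGFRB and FBLN1) and TWIST2 fell. Their sum was 413 to 506 CPM in MC-F7 and 813 to 886 CPM in MT-F7, while DCN, LUM, PDGFRA and THY1 overlapped between the groups and FAP had 0 counts in every MT-F7 library. These marker levels differed between the same groups as the OXPHOS genes below, and their part in those results was not tested. In bulk RNA, fewer cells of a type and less RNA per cell cannot be told apart.

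MT-F7 cells were compared with MC-F7 cells to see how the OXPHOS genes differ between the feeder types. Of the 97 genes, 91 had enough counts to be tested. A gene was called when its p-value from edgeR's quasi-likelihood test was under 0.05 after Benjamini-Hochberg adjustment across the 13001 genes tested. By this rule 8 of the 91 OXPHOS genes were called (8.79%), against 23.2% of all tested genes. Lower in MT-F7 were 7, where 11.3% of all tested genes were called lower. The complex IV isoform NDUFA4L2 showed the greatest difference among them, followed by COX6B2 and COX5A of complex IV, UQCRH and UQCRB of complex III, and NDUFV2 and NDUFB1 of complex I. The 1 called in the other direction was the assembly factor NDUFAF8, where 11.9% of all tested genes were called higher. At an unadjusted p under 0.05 there were 15 of the 91 OXPHOS genes and 4655 of the 13001 tested genes. Limma on the deposited TPM values called 3 of the 8, NDUFA4L2, COX6B2 and NDUFAF8. It did not call UQCRB, UQCRH, COX5A, NDUFV2 or NDUFB1 (adjusted p from 0.117 to 0.224 on log2(TPM + 1)). Those values had a constant ratio to the counts across libraries, so they were not scaled for library size. Total counts were 21958386 to 23414319 in MC-F7 and 24271208 to 24933430 in MT-F7. This raises the fold changes in the limma fit, so it does not compare the tests at equal scale.

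**Figure D1:**
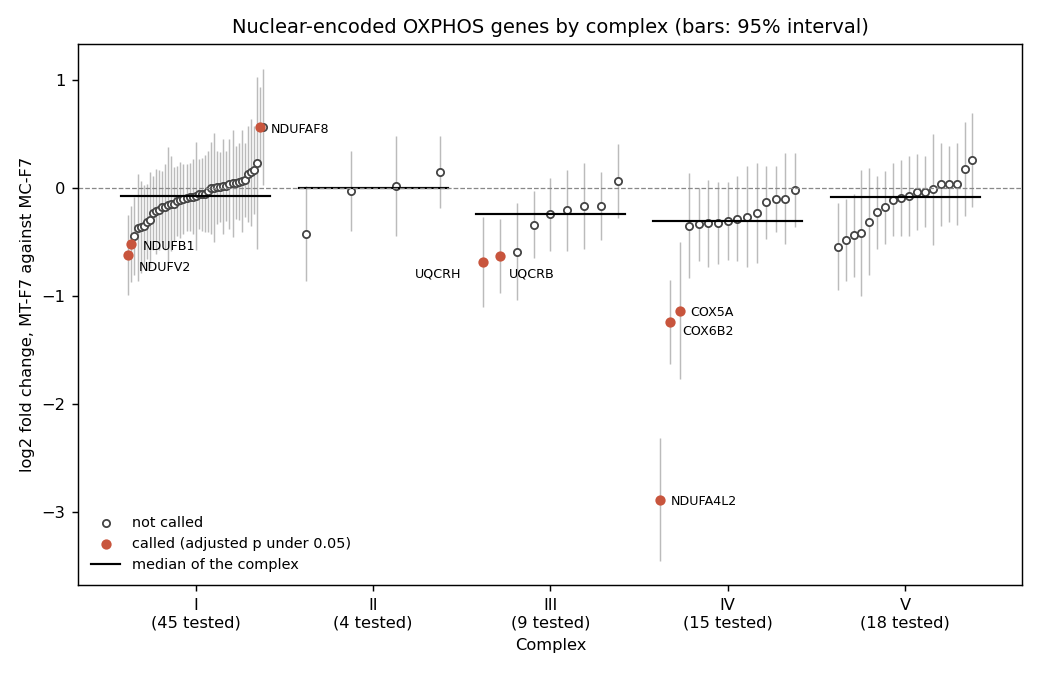
Each point is 1 of the 91 tested OXPHOS genes, grouped by complex on the horizontal axis and sorted by its log2 fold change (MT-F7 against MC-F7) on the vertical axis; grey bars are 95% intervals, filled points are called genes and black lines are the medians of the complexes. The 15 complex IV genes all lie below 0, and NDUFA4L2 stands apart at -2.88.

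Most OXPHOS genes lay close to no difference. The median log2 fold change was -0.11 over the 91 genes, beside 0.00 over all tested genes, and 65 values lay below 0 and 26 above. Limma on log2(TPM + 1) used the length-scaled values as the authors deposited them, without rescaling. There the median of the 94 genes with a value above 0 was 0.02, beside 0.01 over all genes. As that fit was not scaled for library size, its change of sign cannot settle the direction of this small offset. The column sums of those values were 154763 to 161716 in MC-F7 and 163772 to 164394 in MT-F7. After rescaling to equal sums, the MT-F7 to MC-F7 ratio of the summed OXPHOS genes was 0.932. The 95% interval of the log2 fold change lay between -1 and 1 for 83 of the 91 genes and between -0.5 and 0.5 for 36, and the median standard error was 0.17. Among the 78 ubiquitous subunits 5 were called (6.41%, against 23.2% of all tested genes), all lower, and the median of the 78 was -0.10. Among the 13 tested assembly factors, isoforms and regulators 2 were lower and 1 higher (23.1%). No overlap between the CPM of the groups was seen for 15 OXPHOS genes, against 40% of all tested genes, and in 13 of them the MT-F7 libraries were the lower ones, against 20.1% of all tested genes.

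Complex I is the entry point for electrons from NADH, with a catalytic core that carries flavin and iron-sulfur clusters and many accessory subunits around it. All 45 of its genes were tested, of which 2 fell and 1 rose (6.67%, against 23.2% of all tested genes), with a median log2 fold change of -0.07. This median had no stable sign, being 0.01 without MC-F7 replicate 1 (19 genes below 0 and 26 above). On log2(TPM + 1), not scaled for library size, it was 0.07 (16 below and 29 above). NDUFV2, an iron-sulfur subunit of the NADH-oxidizing module, had 97.0, 83.4 and 77.3 CPM in the MC-F7 libraries and 60.4, 63.3 and 44.0 CPM in the MT-F7 libraries. Every MT-F7 library lay below every MC-F7 library, and the log2 fold change was -0.62 ± 0.17 (SE, adjusted p = 0.0202). The call was lost without MC-F7 replicate 1 (adjusted p = 0.0702) and without MC-F7 replicate 2 (0.0651).

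NDUFB1, an accessory subunit of the membrane arm, had 154, 122 and 107 CPM in MC-F7 and 83.1, 90.5 and 93.8 CPM in MT-F7. The groups did not overlap, and its log2 fold change was -0.52 ± 0.16 (SE, adjusted p = 0.0359). This call was lost when MC-F7 replicate 1 or 2 or MT-F7 replicate 1 or 2 was left out, with adjusted p-values from 0.0950 to 0.141. No other core subunit was called. NDUFV1, which binds NADH and flavin, had a log2 fold change of -0.23 ± 0.16 (SE), and NDUFS1, NDUFS3, NDUFS7 and NDUFS8 lay between -0.09 and 0.01. The 30 accessory subunits had a median of -0.04, with 16 below 0 and 14 above. NDUFA12 was the least precisely measured of them, with 10.8, 34.2 and 13.6 CPM in MT-F7 and 13.1, 13.4 and 23.4 CPM in MC-F7 and a standard error of 0.37.

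The 8 assembly factors build complex I but do not stay in it. NDUFAF8, a partner of the arginine hydroxylase NDUFAF5, had 45.9, 38.3 and 40.4 CPM in MC-F7 and 52.5, 56.5 and 75.2 CPM in MT-F7. All 3 MT-F7 libraries lay above the MC-F7 libraries, MT-F7 replicate 3 farthest, and the log2 fold change was 0.57 ± 0.17 (SE, adjusted p = 0.0295). Without MC-F7 replicate 2, MC-F7 replicate 3 or MT-F7 replicate 3 it was not called (adjusted p = 0.139, 0.0525 and 0.0739). NDUFAF5 itself did not overlap in the opposite direction, with 21.9, 25.5 and 29.0 CPM in MC-F7 and 20.6, 18.0 and 17.7 CPM in MT-F7, but it did not pass (log2 fold change -0.44, adjusted p = 0.0749). NDUFAF7, a methyltransferase, was low throughout, at 3.67, 4.31 and 3.13 CPM in MC-F7 and 6.73, 4.36 and 5.43 CPM in MT-F7, and did not pass either (0.57, adjusted p = 0.118).

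Complex II, succinate dehydrogenase, is the enzyme shared by the respiratory chain and the citric acid cycle, and the nucleus encodes all of it. None of SDHA, SDHB, SDHC and SDHD was called by edgeR's quasi-likelihood or exact test, DESeq2 or limma, and none had an unadjusted p under 0.05 in any of these. SDHA, the flavoprotein, had 57.5, 48.0 and 66.5 CPM in MC-F7 and 55.3, 48.6 and 65.5 CPM in MT-F7. Its log2 fold change was -0.02, with a 95% interval from -0.39 to 0.35. SDHB, the iron-sulfur subunit, and SDHC, a membrane anchor, had log2 fold changes of 0.15 (interval -0.19 to 0.48) and 0.02 (-0.45 to 0.49). For SDHD, the other anchor, the values were 149, 109.9 and 95.6 CPM in MC-F7 and 95.8, 103 and 66.1 CPM in MT-F7. These overlapped (log2 fold change -0.42, interval -0.86 to 0.02). In 2 other settings of the quasi-likelihood test SDHD was called lower, with replicate number as a block (adjusted p = 0.0152) and without both replicate 3 libraries.

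Complex III transfers electrons from ubiquinol to cytochrome c. Of its 9 genes 2 fell and none rose (22.2% called, where 23.2% of all tested genes were called and 11.3% called lower). A log2 fold change below 0 was found for 8, and the median was -0.24. The same 8 against 1 split was found without MC-F7 replicate 1 and on log2(TPM + 1), but the median was then -0.10 in each. The groups did not overlap for 5 of the 9 genes (UQCRH, UQCRB, CYC1, UQCRQ and UQCRC1), with MT-F7 lower in each. Of all tested genes 40% did not overlap, and 20.1% did so with MT-F7 lower. UQCRB, a small subunit near the ubiquinone site, had 199, 167 and 162 CPM in MC-F7 and 113, 128 and 99.7 CPM in MT-F7. Its log2 fold change of -0.63 ± 0.16 (SE, adjusted p = 0.0114) stayed past the threshold whichever single library was left out. It did not pass in limma on log2(TPM + 1), which was not scaled for library size (-0.49, adjusted p = 0.117).

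UQCRH, the hinge protein at the cytochrome c1 docking side, had 241, 197 and 137 CPM in MC-F7 and 121, 126 and 112 CPM in MT-F7. MC-F7 replicate 3 stood near the MT-F7 values, though the groups did not overlap, and the log2 fold change was -0.68 ± 0.19 (SE, adjusted p = 0.0215). It was called in only 2 of the 6 fits that left out a library, losing the call without replicate 1 or 2 of either group (adjusted p from 0.0504 to 0.0878). In the RefSeq annotation UQCRH overlaps LRRC41, which was at 35.4 CPM on average and higher in MT-F7 (log2 fold change 0.67, adjusted p = 0.00815). The library kit does not mark strand, so reads of the 2 genes may not be fully separated.

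The catalytic subunits of complex III did not pass by the rule above, but some other settings called them lower. UQCRFS1 was called by DESeq2, by edgeR's exact test and by its quasi-likelihood test on all genes with at least 1 count. Without MC-F7 replicate 3 UQCRFS1 was called too. Both UQCRFS1 and CYC1 were called with replicate number as a block, a pairing that the labels do not give, and without both replicate 3 libraries. UQCRFS1, the Rieske iron-sulfur protein, had 180.0, 156 and 109.6 CPM in MC-F7 and 117, 105 and 74.6 CPM in MT-F7, at a log2 fold change of -0.59 ± 0.21 (SE, adjusted p = 0.0604). CYC1, cytochrome c1, had 226, 208 and 211 CPM in MC-F7 and 183, 159.9 and 168 CPM in MT-F7 (-0.34 ± 0.14, adjusted p = 0.107). For UQCRFS1 the overlap came from MC-F7 replicate 3, whereas CYC1 was lower in each MT-F7 library. UQCRC2, a core protein, was the 1 gene of the complex above 0, at 0.07.

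Complex IV ends the chain. Its 11 ubiquitous nuclear subunits all had a log2 fold change below 0, as did the 3 testable isoforms and COX7A2L, and the median over these 15 genes was -0.30. Without MC-F7 replicate 1 it was -0.17, with 13 of 15 below 0, and on log2(TPM + 1) it was -0.16 over 14 genes. Scaling by library size alone put COX6B1 at 0.01, and on the deposited TPM values, not rescaled, COX6A1, COX6B1 and COX7A2L lay above 0. On rescaled TPM the mean of COX6B1 was higher in MT-F7 (576 against 548 in MC-F7). Those of COX6A1 (167 against 170) and COX7A2L (40.4 against 40.9) were slightly lower in MT-F7. Among the scales that take account of library size, only COX6B1 thus changed direction. COX6A1 and COX7A2L lay above 0 on the deposited values alone among the scales named, and those were not scaled for library size. Called were 3 of the 15 (20%), all lower in MT-F7, where 23.2% of all tested genes were called and 11.3% called lower. Of the ubiquitous subunits COX5A alone was called. COX5A had 55.8, 58.1 and 27.2 CPM in MC-F7 and 27.2, 23.6 and 13.5 CPM in MT-F7. MC-F7 replicate 3 equalled the highest MT-F7 library to the digits shown, and the log2 fold change was -1.14 ± 0.29 (SE, adjusted p = 0.0135). Without MC-F7 replicate 2 the adjusted p was 0.0659.

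NDUFA4L2, an alternative form of NDUFA4 known as a target of hypoxia-inducible factor, showed the greatest difference of the 91 genes. It had 58.6, 41.7 and 32.9 CPM in MC-F7 and 4.10, 6.37 and 7.60 CPM in MT-F7. Even the lowest MC-F7 library lay far above the highest MT-F7 library. The log2 fold change was -2.88 ± 0.26 (SE, adjusted p = 8.15e-06), or 7.37-fold lower in MT-F7, and it was called without any 1 library. In the RefSeq annotation NDUFA4L2 overlaps SHMT2, a serine hydroxymethyltransferase at 266 CPM, which fell too but by less (log2 fold change -0.74, adjusted p = 0.00662).

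COX6B2, the form of COX6B known from testis, had 56.7, 45.6 and 39.1 CPM in MC-F7 and 17.4, 19.9 and 22.5 CPM in MT-F7. The groups were well apart, with a log2 fold change of -1.24 ± 0.18 (SE, adjusted p = 0.000328), that is 2.37-fold lower in MT-F7, and the call held whichever library was left out. It overlaps GARIN5B in the RefSeq annotation, a gene that was not testable here.

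**Figure D2:**
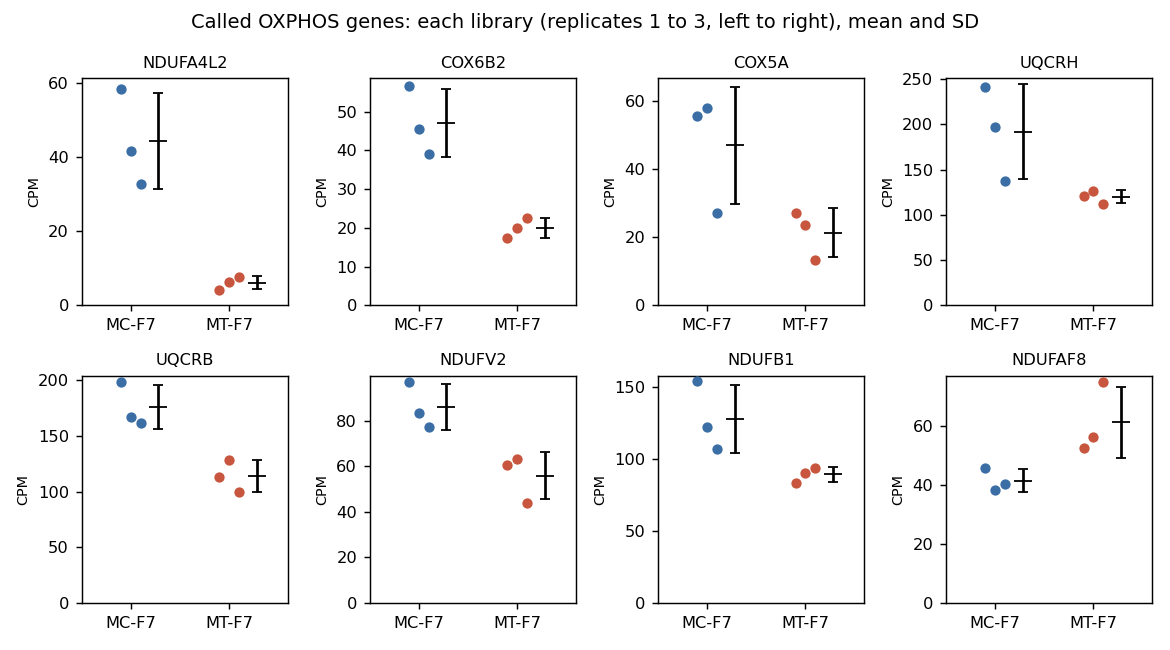
CPM (vertical axes, from 0) of the 8 called OXPHOS genes in each library of MC-F7 and MT-F7 (points, replicates 1 to 3 from left to right), with the group mean and SD beside them. NDUFA4L2 and COX6B2 are well separated, while COX5A and UQCRH have an MC-F7 replicate 3 close to the MT-F7 libraries.

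The common counterparts of these isoforms did not pass the test. NDUFA4, a constitutive subunit of complex IV, had 243, 206 and 142 CPM in MC-F7 and 180.0, 175 and 110.1 CPM in MT-F7 (log2 fold change -0.35, interval -0.83 to 0.14). COX6B1 had 366, 305 and 279 CPM in MC-F7 and 305, 344 and 292 CPM in MT-F7 (-0.01, interval -0.36 to 0.33). Both overlapped between the groups. Levels of different genes were compared only per length, on the deposited TPM values rescaled to 1000000 in each library. On that scale NDUFA4L2 made up 20.3%, 17.6% and 19.6% of the NDUFA4 and NDUFA4L2 total in the MC-F7 libraries and 2.35%, 3.70% and 6.79% in the MT-F7 libraries, or 19.2% ± 1.41 against 4.28% ± 2.28 (SD, n = 3). COX6B2 made up 13.3% ± 0.578 of the COX6B1 and COX6B2 total in MC-F7 and 6.19% ± 1.03 in MT-F7 (n = 3, SD). Neither share overlapped between the groups. These shares carry no test, and 3 libraries against 3 cannot give an exact permutation p below 0.1.

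**Figure D3:**
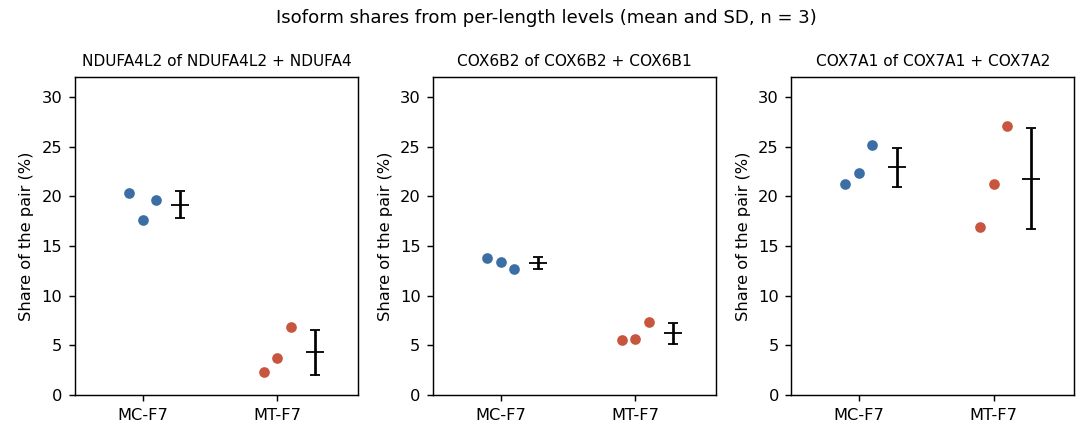
Share of 1 isoform in the total of its pair, in percent on the vertical axes, from length-scaled levels in each MC-F7 and MT-F7 library (points), with mean and SD. The NDUFA4L2 and COX6B2 shares do not overlap between the groups, whereas the COX7A1 shares, 16.9% to 27.1% over all libraries, do.

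Other isoform pairs of complex IV showed no such shift. COX7A1, the muscle form of COX7A, made up 22.9% ± 2.0 of the COX7A1 and COX7A2 total in MC-F7 and 21.8% ± 5.09 in MT-F7 (n = 3, SD). COX7A1 and COX7A2 had log2 fold changes of -0.32 (interval -0.73 to 0.08) and -0.23 (-0.69 to 0.23). The 6 genes that could not be tested were all isoforms or copies. COX4I2, a second isoform of COX4I1 that is known to respond to low oxygen, had between 1 and 7 counts in each library. COX7B2, COX8B and COX7ALP1 had at most 6 counts in a library, and COX6A2 and COX8C had 0 in all, where the smallest amount taken as detected, 3 counts, corresponds to 0.120 to 0.137 CPM. That limit covers counting error only. COX7ALP1, annotated as a pseudogene, had 3 to 5 counts in MC-F7 and 1 to 2 in MT-F7. Limma on log2(TPM + 1) called it lower (log2 fold change -0.11, adjusted p = 0.0465), whereas DESeq2 (0.510) and edgeR's quasi-likelihood test on all genes with at least 1 count (0.453) did not. For the other 5 no difference was detectable at this depth.

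Complex V, the ATP synthase, joins a catalytic F1 head through stalks to a rotating ring of c subunits. None of its 18 genes was called by edgeR's quasi-likelihood test under the rule above, and 3 had an unadjusted p under 0.05. The exact test of edgeR called ATP5PF and ATP5MK, and DESeq2 called ATP5PF. The quasi-likelihood test on all genes with at least 1 count also called ATP5PF. ATP5F1A, ATP5MC3, ATP5MK and ATP5PF were called lower without MC-F7 replicate 3, and with replicate number as a block. Without both replicate 3 libraries these 4 were called, and so were ATP5IF1 and ATP5PB. The median log2 fold change was -0.08, with 13 genes below 0, but it was 0.02 without MC-F7 replicate 1 (9 below and 9 above). On log2(TPM + 1), not scaled for library size, it was 0.05 (7 below and 11 above). ATP5PF, a peripheral stalk subunit, had 222, 180.3 and 147 CPM in MC-F7 and 131, 145 and 102 CPM in MT-F7, and did not overlap (log2 fold change -0.54 ± 0.19, SE, adjusted p = 0.0539). ATP5F1A, the alpha subunit of the head, had 539, 491 and 399 CPM in MC-F7 and 411, 356 and 291 CPM in MT-F7 (-0.43 ± 0.18, adjusted p = 0.0971). Its partner ATP5F1B, the catalytic beta subunit, lay at -0.07 (interval -0.44 to 0.30).

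The c subunit of complex V is made from 3 genes whose mature proteins are the same. Per length, ATP5MC3 held 44.1% ± 6.95 of their total in MC-F7 and 37.6% ± 5.48 in MT-F7, ATP5MC2 held 38.7% ± 4.79 and 43.8% ± 1.92, and ATP5MC1 held 17.2% ± 2.21 and 18.6% ± 3.90 (SD, n = 3). The shares of ATP5MC1, ATP5MC2 and ATP5MC3 overlapped between the groups. ATP5MC3 varied most, with 266, 245 and 117 CPM in MC-F7 and 192, 163 and 116 CPM in MT-F7. ATP5IF1, which inhibits the reverse reaction of the enzyme, had 283, 254 and 219.5 CPM in MC-F7 and 197, 216 and 234 CPM in MT-F7 (log2 fold change -0.22, interval -0.56 to 0.11).

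Subunit levels differed widely within each complex, although subunits are assembled in fixed numbers. On the rescaled TPM, averaged over the 6 libraries, the median ubiquitous subunit was at 86.5 in complex I, 67.5 in complex II, 192 in complex III, 238 in complex IV and 228 in complex V. The lowest was NDUFS1 of complex I at 13.2 and the highest COX8A of complex IV at 854. The highest in the other complexes were NDUFA3 at 456 (complex I), SDHB at 153 (complex II), UQCR10 at 433 (complex III) and, counting regulators, ATP5IF1 at 544 (complex V). Reads from near-identical processed copies, which many of these genes have in mammalian genomes, could raise or lower such levels, since the handling of reads with several matches is not stated.

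Summed over all 97 genes, MC-F7 libraries had 13720, 11607 and 10068 CPM and MT-F7 libraries 10583, 11074 and 9668 CPM. The sums overlapped, and the MT-F7 mean was 0.885 of the MC-F7 mean. By complex this ratio was 0.948 for complex I, 0.956 for complex II, 0.777 for complex III, 0.822 for complex IV and 0.903 for complex V. On the rescaled TPM these ratios were 0.990, 1.01, 0.822, 0.868 and 0.962 in the same order, so that of complex II turned above 1. Complex III alone had sums that did not overlap, with 1567, 1323 and 1177 CPM in MC-F7 and 1080.0, 1079 and 1002 CPM in MT-F7. In complex IV the MC-F7 libraries had 3289, 2776 and 2364 CPM and the MT-F7 libraries 2350.3, 2490.0 and 2084 CPM, with MC-F7 replicate 3 inside the MT-F7 range.

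The OXPHOS genes also differed between libraries of the same group. Replicate 3 had the lowest CPM in both groups for 52 of the 91 tested genes (57.1%), against 25.8% of all tested genes. The median log2 difference of the OXPHOS genes from their mean over the 6 libraries was 0.30, 0.05 and -0.14 in MC-F7 replicates 1, 2 and 3, and -0.03, -0.01 and -0.18 in MT-F7. The spread within MC-F7, 0.43, was thus wider than the median difference between the groups. In complex V all 18 genes were lowest in replicate 3 of MC-F7. Replicate 3 also had the highest share of mitochondrial genome counts in each group. With those genes left out of the fit the same 8 OXPHOS genes were called. With both replicate 3 libraries left out, a choice made after seeing the data, 24 of the 91 OXPHOS genes were called, 22 of them lower in MT-F7. The original 8 were among the 24. Calls over all genes rose too, from 3016 to 4242. The number of genes tested in that fit is not given here, so the 24 are not read as a result about the OXPHOS genes.

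**Figure D4:**
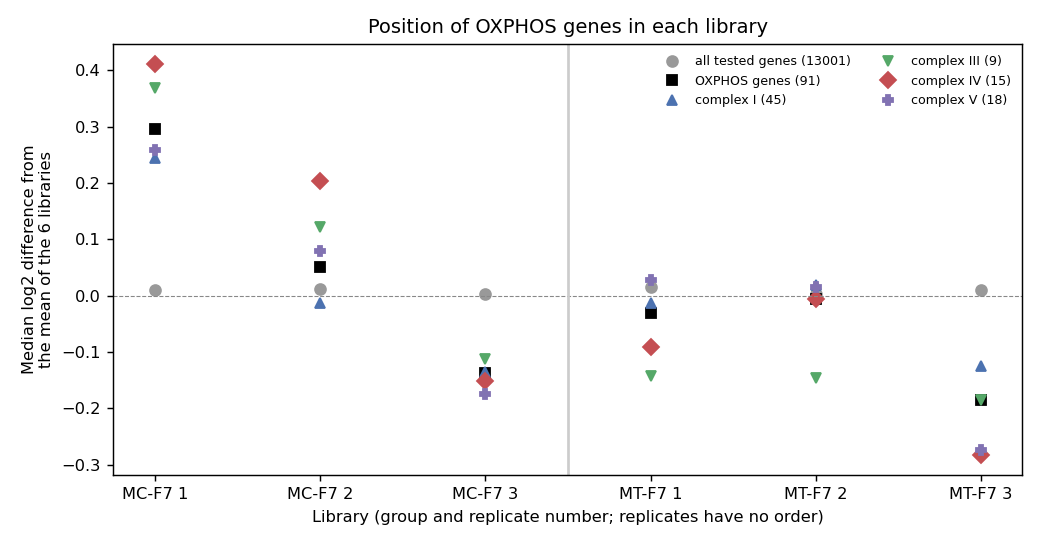
Median log2 difference of each gene group from its own mean over the 6 libraries (vertical axis), for each library (horizontal axis), with the number of genes in brackets. OXPHOS genes (black squares) reach 0.30 in MC-F7 replicate 1 and fall below 0 in replicate 3 of both groups, while all tested genes (grey) stay near 0.

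The subunits made from the mitochondrial genome were examined beside the nuclear ones. None of the 13 was called by edgeR's quasi-likelihood or exact test, DESeq2 or limma, 1 had an unadjusted p under 0.05 by the exact test and none by the others, and their median log2 fold change was -0.02. Their standard errors were larger, with a median of 0.26. Assembly factors outside the naming rule were lower for 5 of 43 tested (11.6%) and higher for none, with a median of -0.14. That share is close to the 11.3% of all tested genes that were called lower. TTC19 and LYRM7, which act on the Rieske protein of complex III, had log2 fold changes of -0.81 (adjusted p = 0.00278) and -0.84 (0.0129). TMEM70, which helps form the c-ring of complex V, fell by 0.82 on the log2 scale (0.00436), and COX20 and SCO1, which mature the COX2 subunit of complex IV, fell by 0.55 (0.0202) and 0.52 (0.0287). TTC19 had 20.9, 19.5 and 21.9 CPM in MC-F7 and 12.2, 11.7 and 11.7 CPM in MT-F7, with little spread within either group.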

How the data were processed

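RNA from 6 samples, 3 of MC-F7 and 3 of MT-F7, was sequenced. Per the study's methods and the submitters' processing notes, the authors aligned reads to the bovine genome with HISAT2 2.0.5 and deposited raw counts per Entrez gene from featureCounts 1.5.0-p3. The genome build and the strand setting are not given in the sources used here. The authors also deposited values named TPM, whose columns sum to between 154763 and 164394. Their ratio to the counts was constant (within 1%) for 9734 of the 9735 genes that had 50 counts or more in each library. They were rescaled to 1000000 here for levels, shares and sums. Limma was run on them as deposited, and thus without scaling for library size. Of the 97 genes 95 had such a value (not COX6C and COX8C).

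Counts were filtered by filterByExpr (minimum count 10, total 15), scaled by TMM and tested with edgeR 4.0.16 (R 4.3.3) by the two-sided quasi-likelihood test without a block, with Benjamini-Hochberg adjustment over 13001 genes. CPM are counts per 1000000 of TMM-scaled library size, and 0.1 CPM was added before logarithms of single libraries. Alternatives used limma 3.58.1, DESeq2 1.42.0, RLE factors, library size, other filters, the exact test, the replicate block and each library left out. The quasi-likelihood test, the exact test, DESeq2 and the replicate block were run on simulated counts with known changes. That simulation used a common dispersion and no differences between replicates, and the other steps were not simulated. Tables were made with Python 3.11.15.

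Genes named are all called OXPHOS genes, isoform pairs, SDHA to SDHD, the highest per length in each complex, untested genes, and up to 5 called genes of each other list (here 6 for biogenesis factors), with others named after their values were seen. The genes and lists were chosen with earlier results of these data known. Overlapping genes were read from RefSeq's ARS-UCD2.0 annotation, for neighbours only. SOX2, LIN28B, TDGF1, UTF1, COX18 and PET117 were not analysed here. Values of 1 further gene are not reported here.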

Additional observations from a re-analysis of the deposited data

How the results depend on the processing

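Beside 8 OXPHOS genes called (7 lower), 4 (3 lower) were called by limma with either pseudocount (log2(TPM + 1), log2(TPM + 0.1)), of which 3 are among the 8 and the other is COX7ALP1. With replicate 3 of both groups left out, a choice made after seeing the data, 24 (22 lower) were called, and 4242 genes in all. Leaving out 1 library gave 3 to 13 OXPHOS genes (3 to 13 lower), the lowest without MC-F7 replicate 2 and the highest without MC-F7 replicate 3, and 1914 to 3093 genes in all, beside 3016. A fit with the replicate block called 19 of the 91 OXPHOS genes (18 lower) and 4674 of the 13001 tested genes. Same-numbered libraries correlated in their deviations at 0.134, 0.0445 and 0.417, MC-F7 replicate 2 correlated better with MT-F7 replicate 1, and nothing in the labels pairs them. Beside -0.106, the median log2 fold change ran from -0.215 without MC-F7 replicate 3 to 0.0209 by limma on log2(TPM + 0.1), not scaled for library size. The median and the summed level ratio (0.932 on rescaled TPM, 0.964 unrescaled) moved by less than the spread between replicates. That spread was wider than the median itself, so this comparison cannot settle the sign of the median. RLE factors, library size, the exact test, DESeq2, both count filters and removal of mitochondrial genome genes gave 8 to 11 OXPHOS genes.

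Small differences changed sign. The limma fits used TPM values that were not rescaled. Their ratio to the counts was constant across libraries, so these fits kept the differences in library size. The larger MT-F7 libraries thereby raise the fold changes of those fits. For the other settings the cause was not tested. With the pseudocounts 1 and 0.1, COX6A1 gave 0.0322 and 0.0335, COX6B1 0.1229 and 0.1242, COX7A2L 0.0446 and 0.0545, ATP5MC1 0.0926 and 0.0990, SDHA 0.0919 and 0.108, and NDUFA3 0.0726 and 0.0735. Library size alone gave COX6B1 0.0059. Without both replicate 3 libraries ATP5MC2 gave -0.0196 and SDHC -0.131. With 1 library left out, values ran from -0.0992 to 0.105 for COX6B1, -0.288 to 0.0328 for COX7A2L, -0.165 to 0.0515 for ATP5MC1, -0.0926 to 0.157 for ATP5MC2, -0.150 to 0.0925 for SDHA, -0.215 to 0.184 for SDHC and -0.150 to 0.0273 for NDUFA3.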

Other observations

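Genes that act on mitochondrial transcription and biogenesis were described as a further list. Of 21 tested, 6 (28.6%) fell in MT-F7 and none rose by edgeR's quasi-likelihood test, where 11.3% of all tested genes were called lower, with a median log2 fold change of -0.25. PPARGC1B, a coactivator of mitochondrial genes, had 3.72, 2.69 and 4.16 CPM in MC-F7 and 0.637, 0.541 and 1.70 CPM in MT-F7 (log2 fold change -1.88, adjusted p = 0.00600). Its relative PPARGC1A was low in every library, at 0.177, 0.207 and 0.608 CPM in MC-F7 and 0.837, 1.00 and 0.849 CPM in MT-F7, and did not pass (1.44, adjusted p = 0.0732). LRPPRC, which stabilizes mitochondrial messenger RNA, had 67.0, 64.6 and 66.7 CPM in MC-F7 and 44.3, 49.2 and 39.3 CPM in MT-F7 (-0.58, adjusted p = 0.0126). The others called were YY1 (-0.72), the nuclear receptor ESRRA (-0.53), the mitochondrial RNA polymerase POLRMT (-0.51) and the mitochondrial DNA helicase TWNK (-0.44). PPARGC1A was named after its values were seen.

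Electron carriers and enzymes of ubiquinone synthesis gave 1 call among 17 tested genes (5.88%, against 23.2% of all tested genes), PDSS1, which makes the side chain of ubiquinone. It had 16.3, 18.5 and 15.3 CPM in MC-F7 and 12.4, 11.9 and 11.0 CPM in MT-F7 (log2 fold change -0.51, adjusted p = 0.0442), and the median of the list was 0.05.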
